A study of Mus musculus with 6 samples.

Results

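IRF1 belongs to a family of transcription factors, and its other members share the DNA it binds. The 6 genes described here are the interferon regulatory factors Irf2, Irf3, Irf4, Irf5, Irf7 and Irf8, taken by symbol from a table of 41388 mouse genes. They were compared between 3 WT and 3 Irf1-/- cultures of Th9 cells by RNA-Seq, together with the balance of Irf4 to Irf8 and to Irf2. Th9 cells are CD4+ helper T cells that make interleukin-9. They were derived from naive CD4+ T cells of spleen and lymph nodes of C57BL/6 mice of 8 to 12 weeks of age. Per the paper's culture methods, the cells were activated with antibodies to CD3 and CD28. They were kept for 2 days with IL-2, IL-4, TGF-β and an antibody to mouse IFN-γ. Rat IFN-γ at 5 ng per ml, a cytokine that induces IRF1, was present in all 6 cultures, so no comparison without it could be made. The IRF1-deficient (Irf1-/-) mice carried a germline deletion and were bred in the authors' facility, whereas the WT mice were purchased.

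All IRF proteins carry a related DNA-binding domain that reads GAAA repeats, the core of the interferon-stimulated response element. IRF2 binds the same sites as IRF1 and was first described as its antagonist. IRF4 and IRF8 are close relatives found mainly in blood cells. They bind DNA weakly alone and mostly act with a partner, either a BATF-JUN dimer or, in B cells and myeloid cells, PU.1. IRF4 is required for helper T cells to become Th2, Th9 or Th17 cells. IRF3, IRF5 and IRF7 lie downstream of receptors for foreign nucleic acids and induce type I interferon genes once phosphorylated.

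In Irf1-/- Th9 cells Irf2 mRNA was at 50.7% of its WT level and Irf8 at 78.7%, whereas Irf3 was at 122%. Irf4, the most abundant of these transcripts together with Irf8, was at 117% of the WT level, but its groups overlapped and the difference did not pass the test. Irf5 was at 106% with overlapping groups, and Irf7 was barely detected in either genotype. Within each library the log2 ratio of Irf4 to Irf8 was 0.58 higher and that of Irf4 to Irf2 was 1.22 higher in Irf1-/- cells, with no overlap between genotypes in either.

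The libraries held 5639788 to 13348230 reads on genes, and both replicates 3 were the deepest of their group. Values are normalized counts, that is reads divided by a size factor of the library, in which 3 reads corresponded to 1.84 to 4.16. Irf1 itself was at 2968, 2907 and 2660 in WT and at 1780, 1729 and 1476 in Irf1-/- libraries, 58.4% of WT, so reads on this gene remained in Irf1-/- cells and the counts per gene do not show where along it they lie. The spans of Gm17334 and Irf1, introns included, overlap on opposite strands by 907 bases. Gm17334 was at 20.9 to 28.9 in WT and at 109 to 146 in Irf1-/- libraries. Shared exons were not examined and the use of strand is not known, so whether reads of the pair mix there is not known. T cell markers (Cd3d, Cd3e, Cd3g, Cd4, Cd28 and Cd5) summed to 10658 to 11304 in WT and 10157 to 10543 in Irf1-/- libraries. Features other than genotype also separated libraries. WT replicates 1 and 2 contained Y-linked transcripts (Ddx3y at 849 and 939), whereas WT replicate 3 and all 3 Irf1-/- libraries held Xist at 16973 to 19403, although the study's methods give the mice as matched for sex. Genotype and these transcripts are therefore partly confounded. In WT replicate 3 and the Irf1-/- libraries no Y-linked gene examined exceeded 4.16 (Ddx3y and Eif2s3y in Irf1-/- replicate 2). With at most such traces, they are called the libraries without Y-linked transcripts below. The sum of 6 myeloid markers ranged from 18.5 to 207 in 5 libraries and reached 1004 in Irf1-/- replicate 2. In bulk RNA, fewer cells of a type and less RNA per cell cannot be told apart.

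Because the data bear on which family members changed with IRF1, the DNA upstream of their start sites was read from RefSeq on build GRCm38.p6. All 6 genes matched an entry. The windows ran from 250 bases before to 50 bases after the start and were searched on both strands for 5 motifs. These were the ISRE core (GAAA, any 2 bases, GAAA), the IFN-γ-activated motif GAS (TTCNNNGAA), the PU.1-IRF composite EICE (GGAA, any 2 bases, GAAA) and the AP-1-IRF composite AICE, either with a spacer (TTTC, any 4 bases, TGA, any base, TCA) or without one (GAAA directly before TGA, any base, TCA). Of 32851 such windows of mouse genes, 3.44% held the ISRE core, 8.30% a GAS, 2.72% an EICE, 0.119% an AICE with and 0.125% an AICE without spacer. Irf2, at chr8:46739495-46739674 on the plus strand, and Irf8, at chr8:120736108-120736287 on the plus strand, are shown because they were the 2 members called lower, with motif matches in capitals. Irf4, at chr13:30748983-30749162 on the plus strand, is shown beside them as the gene whose balance with both was measured, and it holds none. Each line starts 250 bases before the RefSeq start and ends 71 bases before it.
Irf2: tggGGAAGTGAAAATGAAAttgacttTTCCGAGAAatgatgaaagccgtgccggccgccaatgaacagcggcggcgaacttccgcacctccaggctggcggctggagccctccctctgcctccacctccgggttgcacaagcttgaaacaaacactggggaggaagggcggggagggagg
Irf8: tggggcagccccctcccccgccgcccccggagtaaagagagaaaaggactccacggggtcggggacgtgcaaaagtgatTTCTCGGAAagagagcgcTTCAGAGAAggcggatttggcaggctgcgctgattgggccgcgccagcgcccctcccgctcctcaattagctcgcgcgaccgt
Irf4: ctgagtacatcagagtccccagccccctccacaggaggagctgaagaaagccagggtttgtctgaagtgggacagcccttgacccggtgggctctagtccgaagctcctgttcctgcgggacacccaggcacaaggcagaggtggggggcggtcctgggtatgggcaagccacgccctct

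The Irf2 window held an ISRE core, GAAAATGAAA, 241 to 232 bases upstream of the start. An EICE match, GGAAGTGAAA, 247 to 238 bases upstream overlapped it, and a GAS, TTCCGAGAA, lay 224 to 216 bases upstream. The main Irf8 window held 2 GAS matches, TTCTCGGAA 171 to 163 bases and TTCAGAGAA 153 to 145 bases upstream. One of 2 windows of Irf1, itself induced by IFN-γ, held a GAS, TTCCCCGAA, 90 to 82 bases upstream. The windows of Irf3, Irf4, Irf5 and Irf7 held no match to these letters, nor did a further window of Irf8 and the other of Irf1. A match describes the letters only, and factor binding was not measured here.

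Of the 6 members, 2 were called lower and 2 higher in Irf1-/- cells at an adjusted p below 0.05, against 23.7% of the 11379 genes tested that were called in either direction (12.4% lower and 11.4% higher). The test was limma on log2(normalized count + 1), with Benjamini-Hochberg adjustment over all genes with a mean of at least 10. The groups did not overlap for 4 members, 2 of them lower and 2 higher, against 40.5% of all genes tested (20.9% lower and 19.7% higher). The count over 6 genes is a description and not a property of the family. Irf7 passed the limit on low values only through the Irf1-/- group, since its WT mean lay below 10. The median log2 fold change was 0.16 over the members and -0.0037 over all genes tested, and it describes a set in which some members were lower and others higher.

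**Figure D1:**
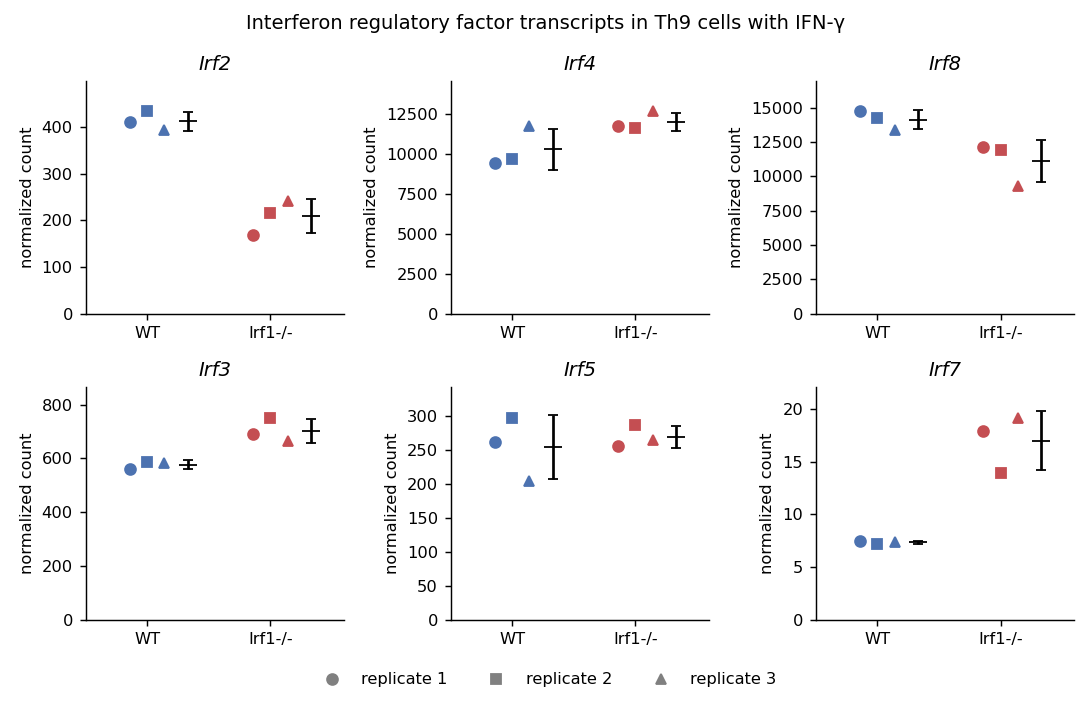
Normalized counts of the 6 IRF genes in each library, with WT in blue and Irf1-/- in red, marker shape for the replicate, and the mean with SD (n = 3) beside each group. The groups of Irf2, Irf8, Irf3 and Irf7 do not overlap, whereas WT replicate 3 of Irf4 (11770) lies above Irf1-/- replicates 1 and 2 and the groups of Irf5 overlap.

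Irf2 (ENSMUSG00000031627, chr8:46739732-46847458, plus strand), the gene of the IRF1 antagonist, was at 411, 434 and 393 in WT replicates 1 to 3 and at 170, 216 and 242 in Irf1-/- replicates. Every Irf1-/- library lay far below every WT library. The means were 413 ± 20.4 and 209 ± 36.5 (SD, n = 3 each), a log2 fold change of -0.99 (SE 0.121, 95% interval -1.26 to -0.72, adjusted p = 3.15e-04 from limma). The counts behind these values were 329, 361 and 640 reads in WT and 142, 156 and 378 reads in Irf1-/- libraries. Irf2 was the member with the largest change among those with more than 100 reads in every library. Without WT replicates 1 and 2, the libraries with Y-linked transcripts, it was -0.92 and still passed (adjusted p = 0.0198 from limma). Between both replicates 3 alone it was -0.70, a comparison of 1 library each that has no test. Another 3 annotated antisense or unclassified genes within the span of Irf2, introns included, were not among the genes counted. Whether they overlap its exons was not examined, and the use of strand in counting was not stated. Whether reads from them were counted as Irf2 is therefore not known.

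Irf8 (ENSMUSG00000041515, chr8:120736358-120756694, plus strand), which drives myeloid and dendritic cell development and is also expressed in activated lymphocytes, was at 14732, 14250 and 13379 in WT and at 12148, 11885 and 9323 in Irf1-/- libraries. All Irf1-/- values were below all WT values, and replicate 3 was the lowest of each genotype. The means of 14120 ± 686 and 11119 ± 1561 (SD, n = 3 each) differed by a log2 fold change of -0.35 (SE 0.0909, 95% interval -0.55 to -0.15, adjusted p = 0.0178 from limma). The size of the decrease leaned on Irf1-/- replicate 3, without which it was -0.23 (adjusted p = 0.0128 from limma). The call was lost without WT replicate 1 (-0.32, adjusted p = 0.0770 from limma), without WT replicate 2 (-0.35, adjusted p = 0.0668) and without both (-0.28).

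IRF8 is abundant in B cells, dendritic cells and macrophages, so the markers of these cells are given beside it. B cell markers summed to 20.0 to 26.4 in WT and 23.0 to 40.2 in Irf1-/- libraries, with Pax5 at 0 in all 6. Dendritic cell markers summed to 140 to 182 and 186 to 199, of which Pacsin1 gave 118 to 135 in WT and 155 to 171 in Irf1-/- libraries. Zbtb46 was at 44.9, 32.5 and 20.9 in WT and at 25.6 to 26.3 in Irf1-/- libraries, with Clec9a at 0 and Siglech, Xcr1 and Flt3 at 3.58 or less. Spi1, which encodes PU.1, did not exceed a normalized count of 2.77 in any library. The myeloid sum was 207, 1004 and 18.5 in Irf1-/- replicates 1 to 3 and 18.7 to 148 in WT libraries. Without Irf1-/- replicate 2 the difference in Irf8 was -0.41 on the log2 scale (limma, adjusted p = 0.0311).

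Irf4 (ENSMUSG00000021356, chr13:30749226-30766976, plus strand), induced by T cell receptor signalling and needed for Th9 differentiation, was at 9450, 9668 and 11770 in WT and at 11744, 11640 and 12673 in Irf1-/- libraries. WT replicates 1 and 2 were low, whereas WT replicate 3 lay within the range of the Irf1-/- libraries. The means of 10296 ± 1281 and 12019 ± 569 (SD, n = 3 each) gave a log2 fold change of 0.23 (SE 0.0798, 95% interval 0.05 to 0.41, adjusted p = 0.0602 from limma), which did not pass. Irf4 passed in 5 of 19 alternative fits. Among these were DESeq2 on the recovered reads (0.23, adjusted p = 0.0257) and limma after quantile normalization (0.25, adjusted p = 0.0157). Without WT replicate 3 the value was 0.33 (adjusted p = 6.01e-04 from limma). Among the 4 libraries without Y-linked transcripts, WT replicate 3 and the 3 Irf1-/- libraries, it was 0.03 (adjusted p = 0.877 from limma). With the amount of Y-linked transcripts as a covariate it was 0.07 (adjusted p = 0.351 from limma). The WT libraries thus divided in Irf4 along the same line as in Y-linked transcripts, and for this difference the Y-linked transcripts and genotype cannot be told apart.

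Among the genes downstream of nucleic acid sensing, Irf3 (ENSMUSG00000003184, chr7:44997648-45002848, plus strand), the constitutive activator of Ifnb1, was at 559, 588 and 583 in WT and at 690, 752 and 664 in Irf1-/- libraries. All Irf1-/- values exceeded all WT values. The means were 577 ± 15.5 and 702 ± 45.0 (SD, n = 3 each), a log2 fold change of 0.28 (SE 0.0679, 95% interval 0.13 to 0.43, adjusted p = 0.0133 from limma). The call was lost without WT replicate 1 (0.26, adjusted p = 0.0605 from limma), without Irf1-/- replicate 2 (0.23, adjusted p = 0.0561) and without WT replicates 1 and 2 (0.26, adjusted p = 0.178). The spans of Irf3 and Bcl2l12, introns included, overlap on opposite strands by 1065 bases. Bcl2l12 was at 86.1 to 104 in WT and 119 to 124 in Irf1-/- libraries. Shared exons were not examined, so the overlapping end is uncertain.

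Irf5 (ENSMUSG00000029771, chr6:29526625-29541871, plus strand), which acts after Toll-like receptors through MyD88, was at 262, 298 and 205 in WT and at 256, 287 and 265 in Irf1-/- libraries. The Irf1-/- values lay inside the WT range. The log2 fold change was 0.09 (SE 0.128, 95% interval -0.19 to 0.38, adjusted p = 0.647 from limma), an interval that includes changes of the size seen for Irf3. Its sign rested on WT replicate 3, without which it was -0.057. With the amount of Y-linked transcripts as a covariate it was 0.33 (adjusted p = 0.0499 from limma), and in the libraries without them 0.39 (adjusted p = 0.127). The spans of Irf5 and Tnpo3, introns included, overlap on opposite strands by 1045 bases.

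Irf7 (ENSMUSG00000025498, chr7:141262706-141266481, minus strand), the interferon-inducible amplifier of the type I response, was at 7.49, 7.21 and 7.38 in WT and at 17.9, 13.9 and 19.2 in Irf1-/- libraries. These values stood for only 6, 6 and 12 reads in WT and 15, 10 and 30 reads in Irf1-/- libraries. The groups did not overlap and the log2 fold change was 1.09 (SE 0.315, 95% interval 0.40 to 1.79, adjusted p = 0.0297 from limma). With a WT mean of 7.36, Irf7 passed the limit on low values only through the Irf1-/- group, where it was higher. Neither the call nor the lack of overlap is therefore independent of that limit. The call was lost under 11 of 18 alternative fits, including DESeq2 on the recovered reads (1.23, adjusted p = 0.152) and the omission of any 1 library other than Irf1-/- replicate 2.

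**Figure D2:**
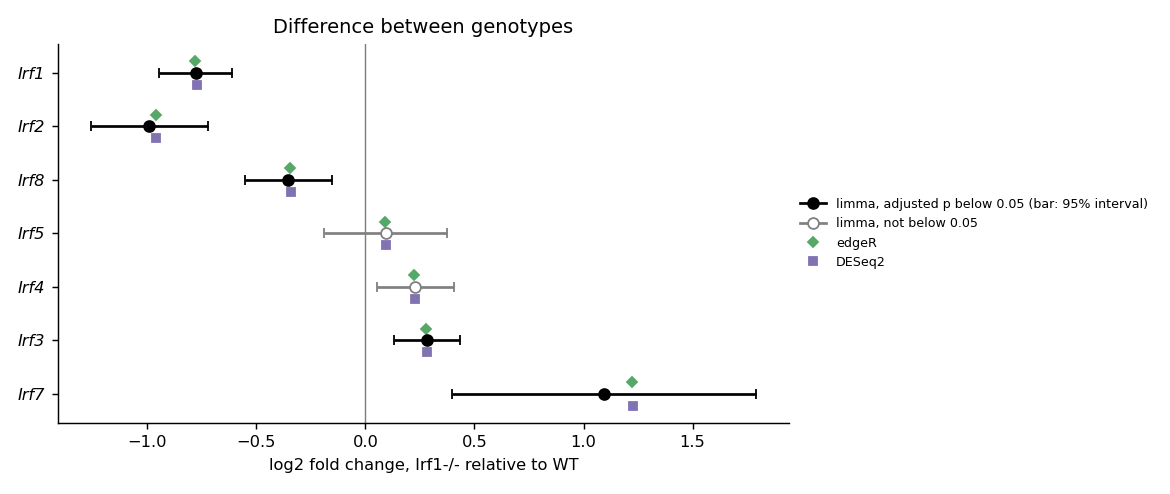
Log2 fold changes of Irf1 and the 6 members, Irf1-/- relative to WT, from limma with 95% intervals (filled where the adjusted p was below 0.05) and from edgeR and DESeq2 on recovered reads. Irf2 lies at -0.99, Irf8 at -0.35 and Irf3 at 0.28, whereas the interval of Irf7 spans 0.40 to 1.79. Irf7 passed the limit on low values only through the Irf1-/- group.

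The balance of the members was compared within each library, where the size factor cancels. A fold difference in a ratio between genotypes does not depend on gene length, although the ratio of reads itself does. The ratio of Irf4 to Irf8 reads was 0.641, 0.678 and 0.880 in WT and 0.967, 0.979 and 1.36 in Irf1-/- libraries. Every Irf1-/- library had the higher ratio, and replicate 3 was the highest of each genotype. On the log2 scale the means were -0.46 ± 0.243 and 0.12 ± 0.279 (SD, n = 3 each), a difference of 0.58. The gap between the highest WT and the lowest Irf1-/- library, 0.14 on that scale, was smaller than the SD of either group.

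The ratio of Irf4 to Irf2 reads was 23.0, 22.3 and 29.9 in WT and 69.3, 53.8 and 52.5 in Irf1-/- libraries. On the log2 scale it rose from 4.63 ± 0.233 to 5.85 ± 0.220 (SD, n = 3 each), a difference of 1.22, and the gap between the nearest libraries of the 2 genotypes was 0.81. Of the 3 ratios it separated the genotypes most clearly, since the gap exceeded the SD of either group by far. The ratio of Irf8 to Irf2 reads was 35.9, 32.8 and 34.0 in WT and 71.7, 54.9 and 38.6 in Irf1-/- libraries. It was nearly equal among WT libraries and spread widely among Irf1-/- libraries, with log2 means of 5.09 ± 0.0644 and 5.73 ± 0.447 (SD, n = 3 each), a difference of 0.64. Irf1-/- replicate 3 lay only 0.10 above the highest WT library.

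The two-sided exact permutation test gave p = 0.1 for each of the 3 ratios, and 0.1 after Benjamini-Hochberg adjustment over them, which is the smallest p that 3 against 3 libraries allow. Leaving out 1 library at a time gave differences of 0.42 to 0.72 for Irf4 to Irf8, 1.09 to 1.35 for Irf4 to Irf2 and 0.43 to 0.87 for Irf8 to Irf2. Without the WT libraries that hold Y-linked transcripts the differences were 0.31, 0.95 and 0.65, so that of Irf4 to Irf8 shrank by more than 1.5 times. The SDs among Irf1-/- libraries were 0.279, 0.220 and 0.447. With 1 WT library against 3 the permutation test cannot reach a low p, so these differences are given as sizes only. Against Irf1 itself, whose remaining reads are those described above, the ratio of Irf4 reads was 3.18, 3.33 and 4.43 in WT and 6.60, 6.73 and 8.58 in Irf1-/- libraries.

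**Figure D3:**
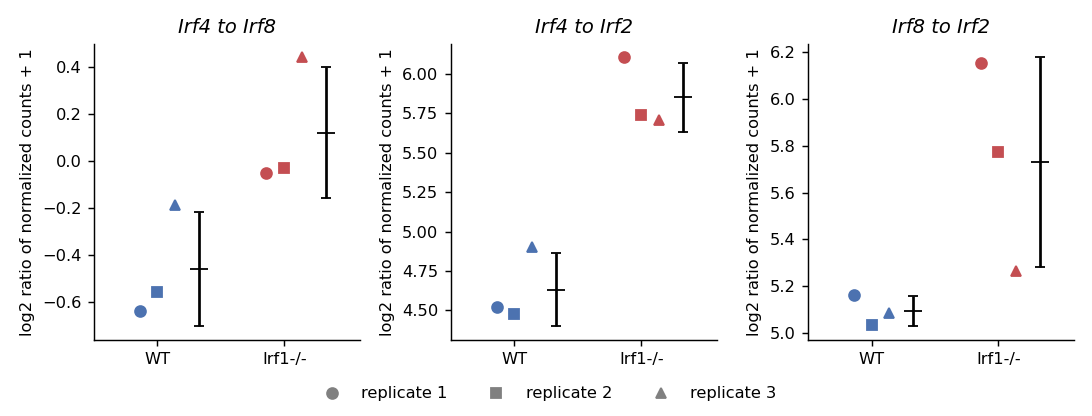
Log2 ratios of Irf4 to Irf8, Irf4 to Irf2 and Irf8 to Irf2 within each library, on the normalized count plus 1, with the mean and SD (n = 3) beside each group; the axes do not start at 0. The genotypes are separated by 0.14, 0.81 and 0.10 between their nearest libraries.

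The order of the transcripts was compared per kilobase of annotated exon (GENCODE, build GRCm38). In WT cells Irf4 at 2100 ± 261 and Irf8 at 2001 ± 97.2 normalized counts per kilobase (SD, n = 3 each) overlapped. Irf3 at 168 ± 4.50, Irf5 at 87.8 ± 16.2, Irf2 at 55.8 ± 2.75 and Irf7 at 1.95 ± 0.0366 followed, with no overlap between neighbours. In Irf1-/- cells Irf4 at 2451 ± 116 lay above Irf8 at 1576 ± 221 without overlap, and the other 4 kept their order, with Irf2 at 28.3 ± 4.94. Which of Irf4 and Irf8 was the more abundant depended on the length used. The annotated exons of Irf8 span 7055 bases in union but 2847 in its longest principal transcript, and per kilobase of the latter Irf8 exceeded Irf4 in both genotypes, at 4960 ± 241 against 2161 ± 269 in WT and 3905 ± 548 against 2523 ± 119 in Irf1-/- cells. On either length the 2 genes stood at least 7.30-fold above Irf3, the next in order. Irf2 and Irf5 also depended on it, since per kilobase of principal transcript Irf2 exceeded Irf5 in WT cells (165 ± 8.16 against 114 ± 21.0) and lay below it in Irf1-/- cells (83.8 ± 14.6 against 120 ± 7.25).

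Irf9, the DNA-binding subunit of the type I interferon-activated complex ISGF3, was at 500, 512 and 440 in WT and 490, 498 and 522 in Irf1-/- libraries, a difference of 0.06 on the log2 scale that did not pass (limma, adjusted p = 0.632).

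Of 15 genes for partners and corepressors of IRF proteins, 12 were tested, of which 3 were higher, 1 was lower and 8 were not called (median log2 fold change -0.09), against 11.4% higher and 12.4% lower over all genes tested. Batf3, whose product pairs with JUN proteins and recruits IRF4 or IRF8, was at 192, 180 and 324 in WT and at 658, 656 and 703 in Irf1-/- libraries. WT replicate 3 was again nearest to the Irf1-/- group, and the difference was 1.58 on the log2 scale (limma, adjusted p = 1.97e-04), or 1.05 in the libraries without Y-linked transcripts (adjusted p = 4.43e-04), where it also passed. Batf, its relative required for Th9 and Th17 differentiation, was at 518, 516 and 533 in WT and at 618, 682 and 747 in Irf1-/- libraries (0.38, adjusted p = 0.00559 from limma). Tcf3 was also called higher (0.26, adjusted p = 0.0352 from limma), a call lost in 8 of 19 alternative fits, with a value of 0.08 in the libraries without Y-linked transcripts. The gene called lower was Swap70, whose product relates to the IRF4-binding protein DEF6, at 565, 561 and 547 in WT and 430, 467 and 449 in Irf1-/- libraries (-0.31, adjusted p = 0.00706 from limma). In the libraries without Y-linked transcripts Batf (0.35, adjusted p = 0.115 from limma) and Swap70 (-0.29, adjusted p = 0.156) did not pass. The JUN family was not called, with Jun at -0.69 (adjusted p = 0.0582 from limma), Junb at -0.08 (adjusted p = 0.412) and Jund at -0.42 (adjusted p = 0.356), and Junb and Jund took the opposite sign in the libraries without Y-linked transcripts (0.03 and 0.45). Without WT replicate 3 Jun (-0.92, adjusted p = 0.00537 from limma) and Jund (-0.85, adjusted p = 0.00169) passed, and Jun also passed without Irf1-/- replicate 2 (-0.90, adjusted p = 0.0377). Other omissions lowered the size of these values, with Jund at -0.15 without WT replicate 1, -0.25 without WT replicate 2 and -0.20 without Irf1-/- replicate 3, and Jun at -0.42 without Irf1-/- replicate 3 and -0.22 in the libraries without Y-linked transcripts. With the replicate number as a block Jun and Jund also passed (adjusted p = 1.28e-06 and 7.37e-04 from limma). Both passed in replicates 1 and 2 only, where Junb did too (-0.18, adjusted p = 0.00135 from limma). Jun passed as well with no filter on low values (adjusted p = 0.0366 from limma). Batf2, Spi1 and Spib were too low to test.

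Of 19 genes for the sensors, adaptors and kinases that activate IRF3, IRF5 and IRF7, 17 were tested, of which 4 were lower, 1 was higher and 12 were not called (median -0.11). The 5 called genes are to be read against 23.7% called over all genes tested. Ikbke, the inducible kinase of IRF3 and IRF7, was at 876, 878 and 723 in WT and at 482, 473 and 507 in Irf1-/- libraries (log2 fold change -0.75, adjusted p = 1.72e-04 from limma). Its constitutive relative Tbk1 was at -0.16 with overlapping groups (adjusted p = 0.255 from limma). Tmem173, which encodes the adaptor STING, was at 1928, 1968 and 1798 in WT and at 1454, 1587 and 1276 in Irf1-/- libraries (-0.40, adjusted p = 0.00452 from limma). Cgas, the DNA sensor upstream of STING, was at 152, 202 and 132 in WT and at 105, 114 and 81.8 in Irf1-/- libraries (-0.68, adjusted p = 0.0180 from limma). The TBK1-binding adaptor Azi2 was the remaining lower gene (-0.26, adjusted p = 0.0131 from limma). Ticam1, the TLR3 adaptor TRIF, was higher at 0.53 (adjusted p = 0.0192 from limma), a call lost in 7 of 19 alternative fits, among them those without WT replicate 1, WT replicate 2, Irf1-/- replicate 2 or Irf1-/- replicate 3. Myd88, the adaptor before IRF5, was at -0.19 (adjusted p = 0.0529 from limma) and passed without WT replicate 3 (-0.22, adjusted p = 0.0420). Cgas lost its call without WT replicate 2 (-0.51, adjusted p = 0.0779 from limma), and Azi2 lost it without WT replicate 2 (-0.24, adjusted p = 0.0604) or Irf1-/- replicate 2 (-0.23, adjusted p = 0.0519). Among the 4 libraries without Y-linked transcripts Ikbke kept its call, whereas Tmem173 (-0.33), Azi2 (-0.24), Cgas (-0.40) and Ticam1 (0.33) did not pass there, the first pair at nearly the reported size.

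The type I interferon genes that IRF3 and IRF7 act on were not detectable at this depth. Of 17 such genes 14 had no read in any library, and the other 3 had 2 reads summed over WT and 1 over Irf1-/- libraries, so none was tested.

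Of 9 genes that IRF4 is known to act on in helper T cells, 7 were tested, of which 2 were higher, 3 were lower and 2 were not called (median -0.80), against 23.7% called over all genes tested. The count includes Il10, Il4 and Prdm1, each of which had a mean below 10 in the lower genotype and passed the limit on low values through the other only. Il9, the cytokine that defines these cells, was at 852, 939 and 1272 in WT and at 3201, 3283 and 3726 in Irf1-/- libraries (log2 fold change 1.75, adjusted p = 9.25e-06 from limma). Il10 was at 2.50, 3.61 and 3.07 in WT and at 20.3, 37.4 and 25.6 in Irf1-/- libraries. Il4 was lower, at 32.4, 38.5 and 67.6 in WT and 11.9, 8.32 and 7.67 in Irf1-/- libraries (-2.15, adjusted p = 0.00113 from limma). Bcl6, the repressor of the follicular helper fate, was at 232, 218 and 141 in WT and 113, 129 and 90.7 in Irf1-/- libraries (-0.80, adjusted p = 0.0128 from limma). Without the WT libraries that hold Y-linked transcripts it was at -0.35 and not called (adjusted p = 0.378 from limma), and the call was also lost without WT replicate 1 or WT replicate 2 alone. Prdm1, which encodes BLIMP-1, was at 11.2, 14.4 and 18.4 in WT and 3.195 to 6.93 in Irf1-/- libraries (-1.33, adjusted p = 0.0351 from limma), and its call was lost in 10 of 18 alternative fits, including DESeq2 (adjusted p = 0.109). Gata3, the defining factor of Th2 cells, named after its values were seen, was at 0.06 and was not called (adjusted p = 0.769 from limma).

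**Figure D4:**
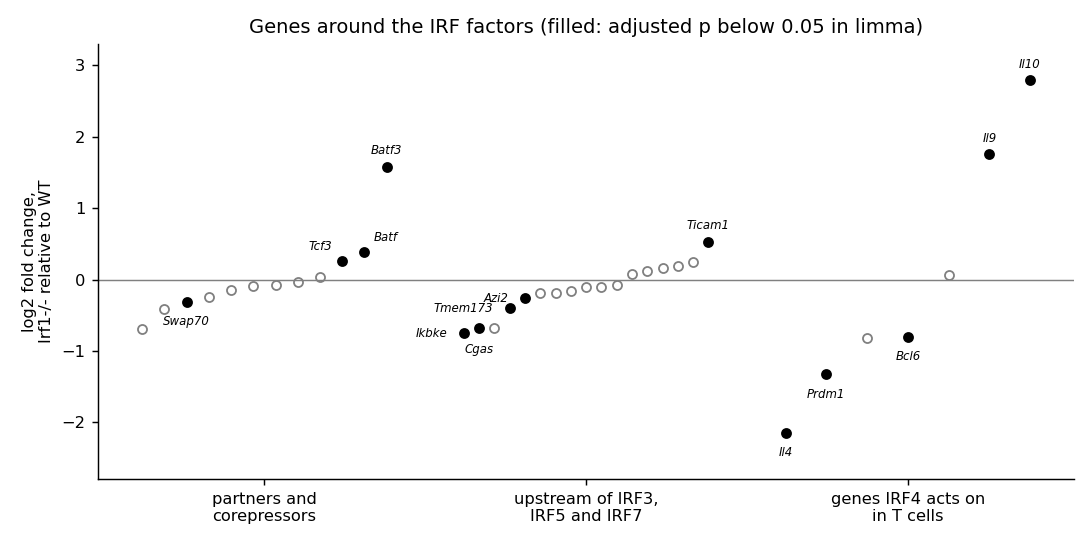
Log2 fold changes (Irf1-/- relative to WT) of the tested genes in 3 lists, each ordered by value, with names on those with an adjusted p below 0.05 in limma. Batf3 (1.58), Il9 (1.75) and Il10 (2.79) are the 3 highest, Il4 (-2.15) is the lowest, and most genes upstream of IRF3, IRF5 and IRF7 lie near or below 0. Il10, Il4 and Prdm1 passed the limit on low values only through the genotype where they were higher. With a pseudocount of 10 Il10 was at 1.51 and Il4 at -1.50.

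The genes whose levels followed each member most closely over the 6 libraries were taken among 8225 genes with a mean of at least 100, by Pearson's r of log2 values. This is a description of 6 libraries that differ together in genotype, Y-linked transcripts and depth, in which high values of r arise between any genes with the same order of libraries. For Irf2 these were Uba7 (r = 0.997), the enzyme that activates ISG15, Ptpn22 (0.997) and BC055324 (0.996). Uba7 was at 162, 177 and 156 in WT and at 38.2, 55.5 and 60.1 in Irf1-/- libraries. For Irf8 they were Itpa (0.996), Cd9 (0.995) and Gpatch4 (0.995), and for Irf3 Fkbp8 (0.994), Elob (0.993) and Arf5 (0.992). For Irf4 they were Soat2 (0.9995), Rdx (0.996) and Fkbp5 (0.993). Soat2 was at 71.1, 80.5 and 181 in WT and at 183, 172 and 256 in Irf1-/- libraries, so WT replicate 3 again stood with the Irf1-/- group. For Irf5 they were Btbd19 (0.977), Slfn10-ps (0.972) and Nf1 (0.963), and for Irf7 Hdgfl3 (0.996), Ccdc88c (0.994) and Stx7 (0.992).

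**Figure D5:**
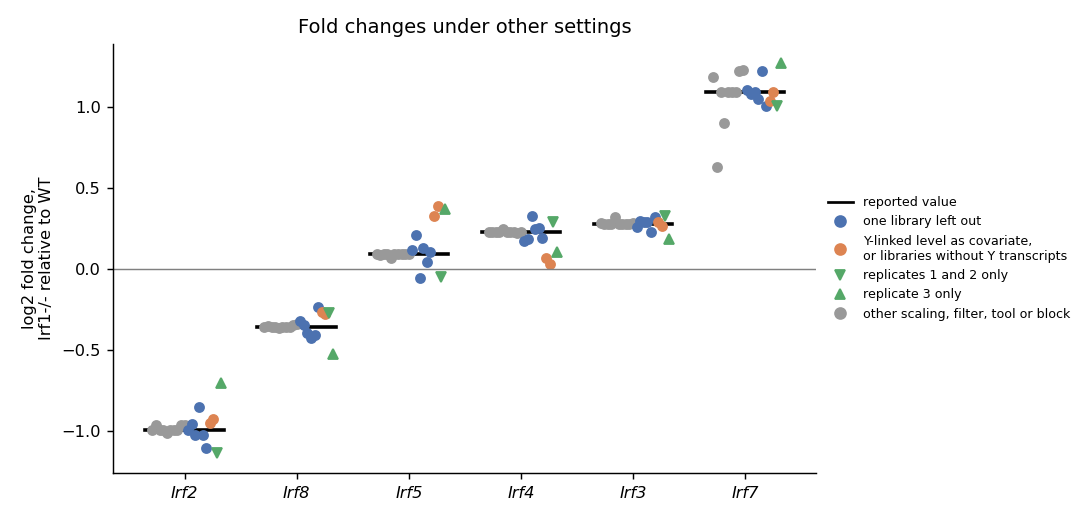
Log2 fold changes of the 6 members under each other setting, with the reported value as a black bar, fits with 1 library left out in blue, fits that address the Y-linked transcripts in orange and subsets of replicates in green. Irf2 stays between -1.14 and -0.70, Irf8 below and Irf3 above 0, Irf4 falls to 0.03 without the WT libraries that hold Y-linked transcripts, and Irf5 lies on both sides of 0.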

How the data were processed

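RNA-Seq of 3 WT and 3 Irf1-/- Th9 cultures was analysed from the deposited table of 41388 Ensembl genes. Per the paper's methods, the authors aligned reads from poly(A) RNA to GRCm38 with STAR, counted them on genes and tested them with DESeq2; the submitters' processing notes name featureCounts, STAR 2.4.0b and DESeq2 1.12.3. Each deposited value is a signal, the count divided by a size factor of the library by the authors. Whole reads were recovered for 100% of non-zero values (tolerance 0.01). The study describes 3 independent biological samples per genotype. Strand use in counting and the number of animals per culture were not stated in the sources used here.

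Symbols came from the reference by Ensembl identifier (40254 matched). Genes with a mean of at least 10 (11379) were tested on log2(normalized count + 1) with limma 3.58.1 in R 4.3.3 (eBayes with trend, all 6 samples, Benjamini-Hochberg, threshold 0.05); fold changes of low genes are understated by the pseudocount of 1. Ratios were compared with an exact permutation test. edgeR 4.0.16 and DESeq2 1.42.0 on recovered reads, other pseudocounts, filters and scalings, omitted libraries, a Y-linked covariate and a replicate block were alternatives. The fits were tested on simulated data. Members and gene lists were chosen with earlier results of these data known. Named genes were the members, Irf1, called list genes, 11 further genes of fixed interest and the 3 genes most like each member; some genes of the lists are counted but not reported here. Lengths and coordinates are from GENCODE and promoters from RefSeq, both GRCm38.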

Additional observations from a re-analysis of the deposited data

How the results depend on the processing

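Irf2 kept its direction and its call in all 19 alternative fits with a test (adjusted p 4.29e-14 to 0.0198) and ranged from -1.10 to -0.85 with 1 library left out. With 1 library left out, Irf8 ranged from -0.42 to -0.23, Irf3 from 0.23 to 0.32, Irf4 from 0.17 to 0.33, Irf5 from -0.057 to 0.21 and Irf7 from 1.004 to 1.22. Among the libraries without Y-linked transcripts, where the single WT library is assumed to vary like the Irf1-/- group, the calls of Irf8 (-0.28), Irf3 (0.26) and Irf7 (1.09) were lost, and 392 genes were lower and 392 higher over all genes. Without a mean-variance trend Irf8 (-0.35, adjusted p = 0.0939 from limma) was not called and 807 genes were lower. Irf4 passed with quantile normalization (0.25), with DESeq2 (0.23) and in replicates 1 and 2 only (0.29). Irf5 was reversed without WT replicate 3 (-0.057) and in replicates 1 and 2 only (-0.045), and passed with the amount of Y-linked transcripts as a covariate (0.33). Irf7 lost its call without a filter (1.09), with quantile normalization (0.90), with DESeq2 (1.23), with the Y-linked covariate (1.04) and in replicates 1 and 2 only (1.01), and a filter at a mean of 50 gave no value. Between both replicates 3 only, Irf2 was at -0.70, Irf8 at -0.52, Irf3 at 0.19, Irf4 at 0.11, Irf5 at 0.37 and Irf7 at 1.27. The ratios there differed by 0.81 for Irf4 to Irf2 and 0.18 for Irf8 to Irf2. With a pseudocount of 10 Irf7 was at 0.63. The causes were not tested.

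Over all genes, leaving out 1 library gave 826 to 1472 lower and 799 to 1372 higher genes, against 1406 and 1293 with all 6. The low counts came without WT replicate 1 (829 and 808), WT replicate 2 (826 and 799) and Irf1-/- replicate 2 (895 and 820). The replicate numbers did not meet the criterion for pairing, since the deviations of replicates 1 correlated at 0.092, against 0.269 and 0.321 for replicates 2 and 3, although every sample correlated best with its own number. With the replicate block 2116 genes were lower and 1893 higher, and Irf4 passed (0.23, adjusted p = 9.61e-04 from limma). Per kilobase of the longest principal transcript, an alternative chosen after seeing the data, log2 of Irf4 over Irf8 was -1.20 in WT and -0.63 in Irf1-/- cells, the reverse of the order on the union of exons.

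Among 22 other genes followed, 369 of 436 alternatives left direction and call as reported. The reversals were Irf9 without WT replicate 3 (-0.0093, in a range of up to 0.0998 with 1 library left out) and in replicates 1 and 2 only (-0.036), Junb without the Y-linked libraries (0.026) and in replicate 3 only (0.12), and Jund with the Y-linked covariate (0.28), without the Y-linked libraries (0.45) and in replicate 3 only (0.018). With 3 libraries per group, ratios cannot reach an exact p below 0.1, and at 6 to 30 reads Irf7 is limited by depth.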
